A study of Mus musculus with 4 samples.

Results

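The antiviral effector genes described here are Isg15, Usp18, Mx1, Mx2, Rsad2, Bst2, Ifi27, Ifi35, Ifi44 and Xaf1, 10 genes that were looked up by their symbols in the mRNA values. Of these 10, 8 had at least 1 transcript row, with 23 rows in all among the 75959 transcripts of 21878 genes listed, and the rows of a gene were summed. Mx1 and Mx2 had no row. All rows of the other 8 genes carry NM or XM identifiers, and RefSeq classes Mx1 and Mx2 of the mouse as transcribed pseudogenes. Why these genes had no row was not tested. The values come from C3H10T1/2, a mouse mesenchymal stem cell line derived from C3H embryos, in which the study followed RNA during myogenic and cardiomyogenic differentiation. Untreated cells (replicates 1 and 2) were compared with cells given 20 μM 5-AZA (replicates 101 and 102), and n = 2 in each group throughout. 5-AZA (5-azacytidine) is built into RNA and DNA in place of cytidine and reduces the methylation of DNA. Treatment lasted 72 hours and was followed by 21 days without the agent. The labels give the untreated samples no time in culture, so exposure to the agent and time in culture cannot be told apart. No other agent, allele or interferon is listed for any sample. The study calls the replicates biological repeats and does not say that they were separate cultures, so the p-values measure only the spread between these samples, which may be technical.

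Interferon-stimulated genes are switched on when interferon binds its receptor at the cell surface, JAK kinases phosphorylate STAT proteins, and these bind IRF9 and enter the nucleus. The complex binds a DNA element rich in GAAA repeats, the interferon-stimulated response element (ISRE). The products act against viruses at many steps, from sensing their RNA to holding new particles at the membrane, and the same genes can be expressed at low levels in cells that have met no virus.

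All 8 antiviral effector genes with a row had higher values in both 5-AZA samples than in both untreated samples. The 7 that reached a mean of 0.1 FPKM over the 4 samples were tested, and all 7 were called higher at an adjusted p-value below 0.05 and a change over 2-fold (limma on log2(FPKM + 0.1), Benjamini-Hochberg adjustment over 13199 genes). FPKM corrects the fragments of a transcript for its length and for the depth of the sample. Each of these 7 genes also averaged at least 0.1 FPKM in the untreated samples alone, so none passed the limit only through its level after 5-AZA. Of all genes tested, 13.1% were called higher and 1.32% lower, and in 36.8% both 5-AZA values lay above both untreated values. The median log2 fold change was 3.88 over the 7 genes and 0.05 over all genes tested. This comparison of all genes depended on the scaling. With quantile normalization the median of all genes moved to -0.12 and 1041 genes were higher and 886 lower, against 1724 and 174 here, while the same 7 genes were called higher.

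The changes fell into separate ranges. Isg15, Ifi44, Usp18, Bst2 and Xaf1 rose by 3.51 to 4.96 on the log2 scale, and Ifi27 and Ifi35 by 1.31 and 1.13. The highest 95% interval bound of these latter genes, 1.55 for Ifi27, lay below the lowest bound of the other 5, 2.77 for Xaf1. In the untreated samples the order of levels was Ifi27, Ifi35, Bst2, Isg15, Xaf1, Usp18, Ifi44 and Rsad2, and the values of no neighbours in this order overlapped. After 5-AZA the order was Ifi27, Bst2, Isg15, Ifi35, Usp18, Xaf1, Ifi44 and Rsad2, and the values of Xaf1 overlapped those of both Usp18 and Ifi44. Bst2 and Isg15 thus passed Ifi35 in level, and Usp18 passed Xaf1 in mean level but not beyond the spread. FPKM is scaled to length, so these levels can be set side by side between genes.

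**Figure D1:**
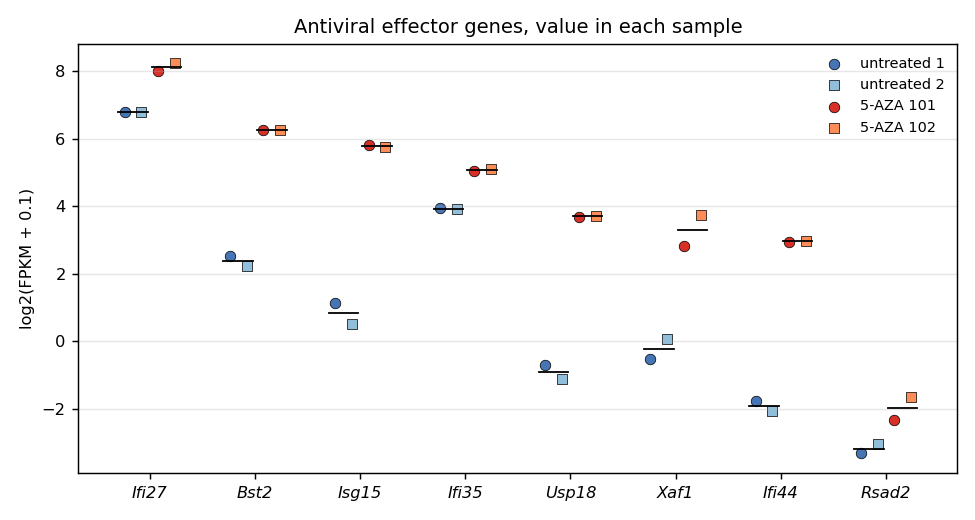
Values of the 8 antiviral effector genes with a row, in each sample, on the log2(FPKM + 0.1) scale. Blue points are untreated samples, red and orange points are 5-AZA samples, and each bar is the mean of its group. The 5-AZA samples lie above the untreated samples for every gene, with the widest gap between 5-AZA samples for Xaf1 (6.96 and 13.3 FPKM) and Rsad2 (0.0993 and 0.221 FPKM).

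**Figure D2:**
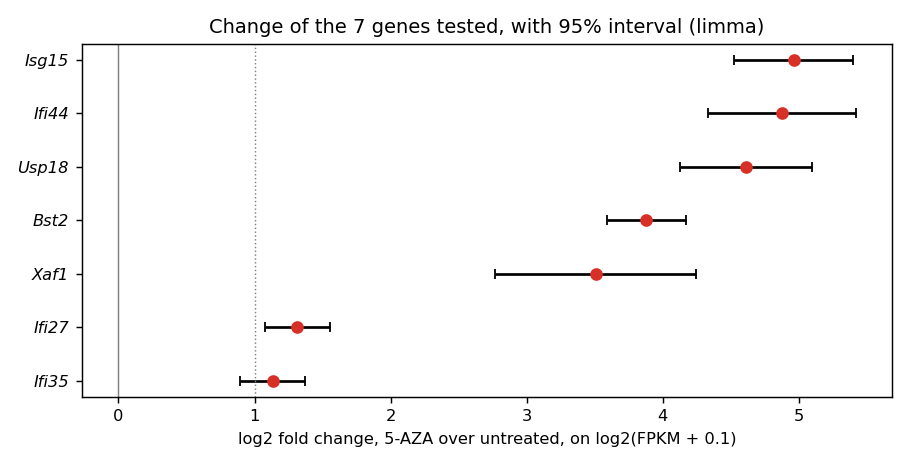
Log2 fold change of the 7 genes tested, 5-AZA over untreated on the log2(FPKM + 0.1) scale, with the 95% interval of limma. The dotted line marks a 2-fold change. Ifi35 and Ifi27 lie near it at 1.13 and 1.31, and the other 5 lie from 3.51 to 4.96.

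Promoter sequences are shown for the 3 genes in which the core of the ISRE was found, because the complex described above binds this element. RefSeq promoter sequences (build GRCm38.p6, from 250 bases before to 50 bases after the start of the gene) were available for 6 of the 10 genes. The core was searched as GAAA, any 2 bases and GAAA, on both strands. It was present in the windows of Isg15, Bst2 and Rsad2 and not in those of Ifi35, Ifi44 and Xaf1, and 3.44% of 32851 promoters of the same length held it. The sequences run 5′ to 3′ on the strand of the gene, over the 150 bases before its start, with the matches in capitals. They are those of the reference mouse genome and not of the C3H line.
Isg15, chr4:156200819-156200968, minus strand: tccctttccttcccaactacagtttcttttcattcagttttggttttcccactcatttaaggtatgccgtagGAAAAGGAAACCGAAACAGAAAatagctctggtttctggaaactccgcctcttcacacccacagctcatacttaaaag
Bst2, chr8:71537473-71537622, minus strand: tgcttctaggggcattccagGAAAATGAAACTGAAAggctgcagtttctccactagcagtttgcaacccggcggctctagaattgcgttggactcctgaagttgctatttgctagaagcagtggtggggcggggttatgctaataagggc
Rsad2, chr12:26456453-26456602, minus strand: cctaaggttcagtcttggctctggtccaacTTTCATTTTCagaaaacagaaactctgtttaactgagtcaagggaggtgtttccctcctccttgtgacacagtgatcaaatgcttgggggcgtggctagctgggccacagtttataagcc

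Isg15 held 3 overlapping matches, with 56 bases between the nearest and the start of the gene. Bst2 held 2 overlapping matches with 114 bases between the nearer and the start. The match in Rsad2 lies in the opposite orientation, so that it reads TTTCATTTTC here. The gamma-activated site, searched as TTCNNNGAA, was present in the windows of Bst2 and Ifi35, against 8.3% of all promoters. In Bst2 it overlaps the ISRE core by the letters GAA. Among 35 other interferon-stimulated genes of a fixed list, 27 had a promoter sequence, and 13 of these held the ISRE core and 8 the gamma-activated site. A match is a description of the letters and does not show binding. A window without an exact match may hold a variant of the element, which was not searched. The genes with a match included Rsad2, with the lowest level. Ifi44, which had no match in this window, had an interval of 4.33 to 5.42 that overlapped that of Isg15, and the order of these genes by rise turned with a pseudocount of 0.01 FPKM (5.46 for Ifi44 and 5.04 for Isg15).

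Isg15 encodes a ubiquitin-like protein that is joined to viral and cellular proteins and is also secreted, and Usp18 encodes the protease that removes it. Isg15 was listed at 2.08 and 1.33 FPKM in untreated replicates 1 and 2 and at 55.8 and 54.1 FPKM in 5-AZA replicates 101 and 102. The groups were far apart, with the 5-AZA values 26.0 to 41.8 times the untreated ones over the 4 possible pairs of samples. The rise of Isg15 was 4.96 on the log2 scale (standard error 0.19, limma adjusted p = 8.11e-07), and 1.11% of the genes tested had a larger rise. Usp18 was listed at 0.511 and 0.359 FPKM in the untreated samples and at 12.7 and 13.0 FPKM in the 5-AZA samples. USP18 also binds the receptor subunit IFNAR2 and dampens interferon signalling, so this gene is both a target of the pathway and a brake on it. The log2 rise of Usp18 was 4.61 (standard error 0.21, limma adjusted p = 1.96e-06), and its interval of 4.13 to 5.10 overlapped that of Isg15, 4.52 to 5.40.

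The enzymes that attach ISG15 form a chain of an activating enzyme (UBA7), a conjugating enzyme (UBE2L6) and ligases (HERC6 in the mouse, and TRIM25). Of these 4 genes 3 were called higher and 0 lower. Herc6 rose from 0.499 ± 0.097 to 3.41 ± 0.16 FPKM (SD) and Uba7 from 1.04 ± 0.05 to 2.92 ± 0.27 FPKM, with log2 fold changes of 2.56 and 1.41 (adjusted p = 9.39e-05 and 0.00156, limma). Trim25 was listed at 0.00522 and 0 FPKM in the untreated samples and at 0.505 and 0.819 FPKM in the 5-AZA samples, so it passed the limit on low values only through the 5-AZA group. Ube2l6 was listed at 6.92 and 7.39 FPKM before and at 12.2 and 11.1 FPKM after, a log2 fold change of 0.70 (95% interval 0.39 to 1.00, adjusted p = 0.00518, limma) that fell short of 2-fold. With a pseudocount of 1 FPKM only Herc6 was called, at a log2 fold change of 1.56. Trim25 ran from 0.72 with that pseudocount to 5.73 with 0.01 FPKM. Without either 5-AZA sample Herc6 and Uba7 lost their calls. The log2 fold change of Trim25 was 3.16 without 5-AZA replicate 101 and 2.56 without replicate 102. In those fits the spread within groups came only from the untreated samples, where Trim25 lies near 0. Its call there therefore says nothing of its reliability.

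Bst2 encodes tetherin, a membrane protein that holds budding enveloped viruses on the surface of the cell. Its level was 5.68 and 4.61 FPKM in the untreated samples and 76.6 and 76.5 FPKM in the 5-AZA samples. The 5-AZA values were nearly equal and made Bst2 the next in level after Ifi27. Bst2 rose by 3.88 on the log2 scale (standard error 0.13, adjusted p = 3.35e-07, limma), with every 5-AZA value 13.5 to 16.6 times an untreated one. It has a single transcript row, NM_198095.2.

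Rsad2 encodes viperin, a radical SAM enzyme that makes a chain-terminating nucleotide against viral polymerases, and it stood apart by its low level. It was listed at 0 and 0.0221 FPKM in the untreated samples and at 0.0993 and 0.221 FPKM in the 5-AZA samples. The 5-AZA samples were higher, but the mean of 0.0855 FPKM over the 4 samples was below the limit, so Rsad2 was not tested. Without that limit its log2 fold change was 1.19 (standard error 0.31, adjusted p = 0.132, limma). With FPKM rescaled to the same sum in every sample, which raises it above the limit, Rsad2 was called higher by a narrow margin (log2 fold change 2.05, standard error 0.56, adjusted p = 0.0488, limma). Cmpk2, a neighbour of Rsad2 that encodes a nucleotide kinase of mitochondria, was listed at 0 in both untreated samples and at 0.0358 and 0.0619 FPKM in the 5-AZA samples, and was not tested either.

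Ifi44 encodes a cytoplasmic protein whose part in antiviral defence is less well defined. Its values were 0.196 and 0.138 FPKM in the untreated samples and 7.60 and 7.74 FPKM in the 5-AZA samples. The rise of 4.87 on the log2 scale (standard error 0.24, adjusted p = 2.71e-06, limma) depends on the pseudocount, which is near the untreated level, from 2.89 with 1 FPKM to 5.46 with 0.01 FPKM, and it was called under each of these. Its summed values after 5-AZA were alike although their makeup was not. Replicate 101 had almost all of the value in NM_133871.2, whereas replicate 102 had 84.4% there and 15.6% in the predicted XM_006502485.1. Ifi44l, a paralogue, was listed at 0 and 0.0186 FPKM and then at 0.85 and 0.839 FPKM.

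Xaf1 encodes a partner and antagonist of the apoptosis inhibitor XIAP. It was listed at 0.597 and 0.952 FPKM in the untreated samples and at 6.96 and 13.3 FPKM in the 5-AZA samples, the widest spread relative to the mean after 5-AZA among the 7 genes tested (10.1 ± 4.48 FPKM, SD). The groups did not overlap, and the rise was 3.51 on the log2 scale (standard error 0.32, adjusted p = 8.49e-05, limma). Without 5-AZA replicate 101 it was 3.97 (adjusted p = 0.0542, limma) and without replicate 102 it was 3.05 (adjusted p = 0.0728, limma), so this call was lost when either was left out. Xiap itself was listed at 17.9 and 17.0 FPKM before and at 14.8 and 14.6 FPKM after, a log2 fold change of -0.24 (95% interval -0.50 to 0.01, adjusted p = 0.156, limma).

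Most of the spread of Xaf1 after 5-AZA lay in its predicted transcripts. NM_001037713.4, the curated transcript with the highest value, was listed at 4.19 and 4.66 FPKM in the 5-AZA samples and at 0.254 and 0.159 FPKM in the untreated ones, a rise of 3.90 (adjusted p = 0.014, limma over 35557 transcripts). It made up 60.1% of the summed value in replicate 101 and 35.0% in replicate 102. The predicted XM_006533569.3 was listed at 0.813 and 2.77 FPKM and XM_006533567.3 at 0.659 and 2.47 FPKM in replicates 101 and 102. XM_011249084.2 held 61.8% of the value of untreated replicate 2 and almost none in untreated replicate 1 and 5-AZA replicate 101. The 8 transcripts of Xaf1 share exons, and the quantification by the authors divides fragments among them.

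Ifi27 encodes a small hydrophobic membrane protein, and it had the highest level of the 8 genes in every sample. Its level was 111 FPKM in both untreated samples and 257 and 299 FPKM in the 5-AZA samples. The rise of 1.31 on the log2 scale (standard error 0.10, adjusted p = 3.56e-05, limma) was small beside that of Isg15, and 11.9% of the genes tested had a larger one. All 8 of its transcripts averaged at least 1 FPKM after 5-AZA, and NM_026790.2 carried 55.3% and 58.5% of the untreated values and 67.0% and 66.2% of the 5-AZA values. Of the 8, NM_026790.2 alone was called higher on its own (log2 fold change 1.54, adjusted p = 0.00403, limma), and the other 7 had log2 fold changes from 0.69 to 2.17 that did not pass. Ifi27l2a, a paralogue, went from 49.7 and 37.8 FPKM to 514 and 583 FPKM, or 3.65 on the log2 scale (limma adjusted p = 7.62e-07), and it was singled out after its values were seen. Fragments that match both paralogues may be shared between them.

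**Figure D3:**
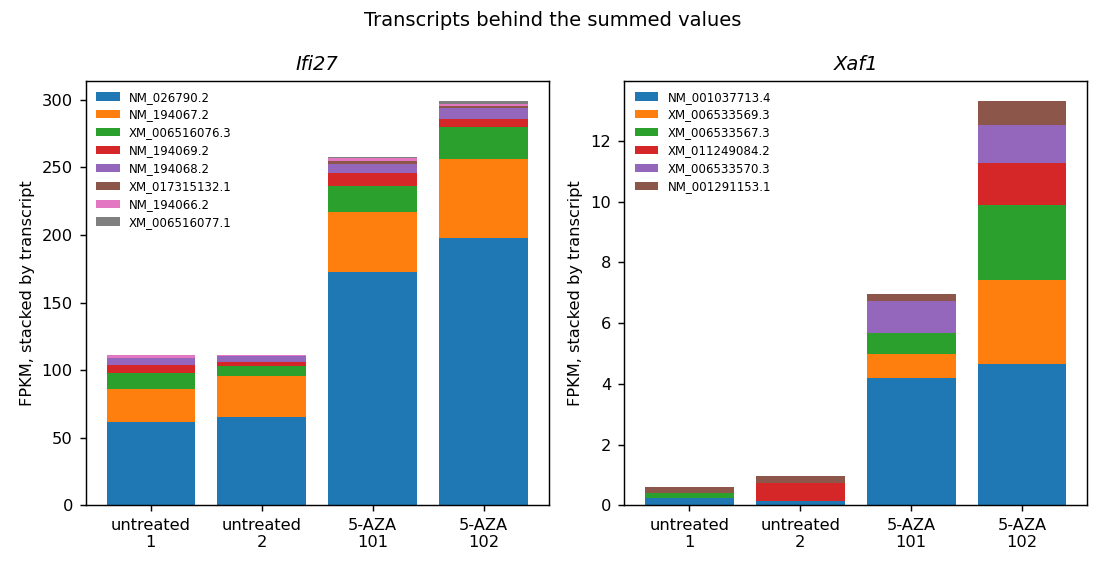
FPKM of Ifi27 (left) and Xaf1 (right) in each sample, stacked by transcript, for transcripts that reached 0.1 FPKM in a sample. NM_026790.2 is the base of every Ifi27 column, while the Xaf1 columns of 5-AZA replicates 101 (6.96 FPKM) and 102 (13.3 FPKM) share a base of similar size, NM_001037713.4, and differ in the predicted transcripts above it.

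Ifi35 encodes a leucine zipper protein that binds NMI, another interferon-induced protein. Its values were 15.3 and 14.9 FPKM in the untreated samples and 32.7 and 33.9 FPKM in the 5-AZA samples. The rise of 1.13 on the log2 scale was the smallest of the 7 (standard error 0.10, adjusted p = 7.94e-05, limma), and its 95% interval of 0.90 to 1.37 included 2-fold. Nmi went from 3.80 and 3.31 FPKM to 7.77 and 8.61 FPKM, or 1.18 on the log2 scale (limma adjusted p = 7.49e-04), and this call was lost without either 5-AZA sample (adjusted p = 0.075 and 0.0891, limma).

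By single transcript, 20 of the 23 rows of the 8 genes reached the limit on low values, and 8 of these were called higher and 0 lower. Of all 35557 transcripts tested, 2.1% were called higher and 0.262% lower. The 8 were the only rows of Isg15, Usp18, Bst2 and Ifi35, 1 row each of Ifi27 and Ifi44, and NM_001037713.4 and XM_006533570.3 of Xaf1. Without 5-AZA replicate 101 or 102, 0 transcripts of the whole table were called, these 8 included. No circRNA among the 4295 listed had one of the 10 genes as its host.

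The interferon genes themselves were near or at 0. Of 12 interferon genes, 8 were listed at 0 in all 4 samples, Ifnb1 among them, 10 were below 0.1 FPKM in every sample, and the highest value of any was 0.226 FPKM, for Ifne in 5-AZA replicate 102. Ifng was the only ligand with both 5-AZA values above both untreated values, at 0 in both untreated samples and at 0.188 and 0.0778 FPKM in the 5-AZA samples. None reached the limit for testing. How many fragments a 0 could hide is unknown, because the values are not counts.

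Of 17 genes for interferon receptors and their signalling, 16 were tested, 4 were called higher, 0 were called lower, and the median change was 0.39 on the log2 scale. Stat2, Irf9 and Irf7 were among the 4, and the remaining gene lost its call without either 5-AZA sample. Irf7, a transcription factor that amplifies interferon responses, was listed at 0.593 and 0.735 FPKM in the untreated samples and at 9.84 and 9.38 FPKM in the 5-AZA samples. Its rise of 3.67 on the log2 scale (adjusted p = 4.46e-06, limma) was the largest of this list. Stat2 and Irf9, whose products are part of the complex that binds the ISRE, rose less. Stat2 rose from 4.90 ± 0.01 to 17.0 ± 1.32 FPKM (SD) and Irf9 from 7.20 ± 0.74 to 26.6 ± 0.30 FPKM, by 1.77 and 1.87 on the log2 scale. Their adjusted p-values were 2.32e-05 and 1.21e-05 (limma). The receptor subunits were not called. Ifnar1 was listed at 12.1 and 12.3 FPKM before and at 11.3 and 13.2 FPKM after (log2 fold change -0.00, 95% interval -0.30 to 0.29, adjusted p = 0.988, limma), and this sign turned when untreated replicate 2 or 5-AZA replicate 101 was left out. Ifnar2 was listed at 20.1 and 17.5 FPKM before and at 28.6 and 31.5 FPKM after (log2 fold change 0.68, adjusted p = 0.00321, limma), short of 2-fold.

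Of 35 other interferon-stimulated genes, all were tested, 28 were called higher and 0 lower, and all 35 had both 5-AZA values above both untreated values, against the 36.8% of all genes tested. Their median log2 fold change was 2.98, with a range from 0.31 to 5.60. Of these 35, 28 averaged at least 0.1 FPKM in the untreated samples alone, and 21 of those 28 were called higher. With a pseudocount of 1 FPKM, or with a limit of 1 FPKM, 24 of the 35 were called higher. Without either 5-AZA sample the count also fell. The summed level of the list was 267 and 247 FPKM in the untreated samples and 1226 and 1312 FPKM in the 5-AZA samples. Ifi27l2a was the largest part of the 5-AZA sums, at 514 and 583 FPKM. The antiviral effector genes, with changes from 1.13 to 4.96, lay within the range of this list.

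**Figure D4:**
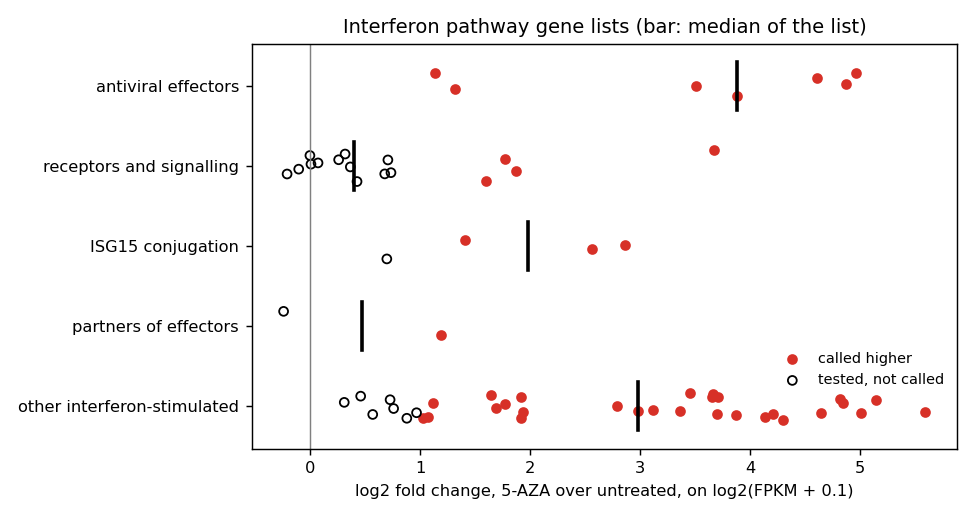
Log2 fold change of each gene tested in 5 lists of the interferon pathway, 5-AZA over untreated on the log2(FPKM + 0.1) scale. Filled points were called higher, open points were not, and the black bar is the median of the list. The medians are 3.88 for the antiviral effectors, 0.39 for receptors and signalling, 1.98 for the ISG15 enzymes, 0.47 for the partners (Nmi and Xiap) and 2.98 for the other interferon-stimulated genes.

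Markers of other cell types changed between the same samples. Of 10 skeletal muscle markers all 10 were called higher, with a summed level of 1.5 to 1.86 FPKM in the untreated samples and 823 to 1260 FPKM in the 5-AZA samples, although only 5 of the 10 averaged 0.1 FPKM in the untreated samples alone and the others passed the limit only through the 5-AZA group. Of 8 adipocyte markers 7 were called higher, with sums of 32 to 47.8 and 1133 to 1550 FPKM, and 1 of these 7, Cidec, passed the limit only through the 5-AZA group. In bulk samples, fewer cells of a type and less RNA per cell cannot be told apart, and the part of these cells in the rise of the antiviral effector genes was not tested. The 10 mesenchymal markers summed to 4052 and 4123 FPKM in the untreated samples and 3097 and 3464 FPKM in the 5-AZA samples, with Vim the highest in every sample, and they did not move together. Vim, Fn1, Col1a1 and Col1a2 had log2 fold changes of -0.87 to -0.37 and Col3a1, Pdgfra, Pdgfrb and Eng of 0.30 to 0.80, all short of 2-fold. Thy1, at 0.578 and 0.785 FPKM in the untreated samples, was called higher (3.98 on the log2 scale, limma adjusted p = 5.89e-06). Eng was also low in the untreated samples, at 1.72 and 1.52 FPKM, and Nt5e was listed at 0 in both. Of 12 immune cell markers, 5 were listed at 0 in all 4 samples, among them Adgre1, Cd3e and Tyrobp, and 8 were below 0.1 FPKM in every sample. Ptprc, which marks nearly all white blood cells, reached 0.0631 FPKM in 5-AZA replicate 101 and was at 0 in the others. The sum of this list was 1.26 and 1.52 FPKM in the untreated samples and 12.5 and 15.0 FPKM in the 5-AZA samples, most of it from Fcer1g, at 9.57 and 10.9 FPKM after 5-AZA. Fcer1g, Cd68 and Cd79a were the 3 of this list that were tested, and all 3 were called higher, Fcer1g and Cd79a having passed the limit only through the 5-AZA samples.

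The 5-AZA samples differed from each other in the muscle and adipocyte markers more than in most antiviral effector genes. Over genes with a mean of at least 1 FPKM after 5-AZA, the value in replicate 102 was a median of 1.02 times that in replicate 101 for the 7 antiviral effector genes and 0.99 times for 32 other interferon-stimulated genes. For 9 skeletal muscle markers the median ratio was 1.5, with a lowest value of 1.40, and for 8 adipocyte markers it was 1.45, with a lowest value of 1.07. Over 11050 genes of this level it was 1.11. Among the antiviral effector genes, Isg15, Usp18, Bst2, Ifi35 and Ifi44 had ratios from 0.97 to 1.04, Ifi27 had 1.16 and Xaf1 had 1.91. These are values of a single pair of samples, and the difference between the lists was not tested.

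**Figure D5:**
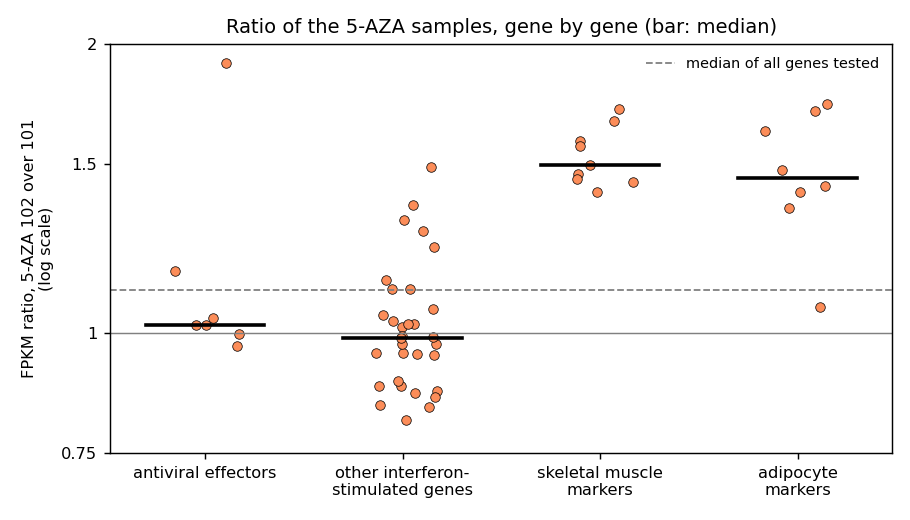
Ratio of the FPKM of 5-AZA replicate 102 to that of replicate 101 on a log scale, for genes with a mean of at least 1 FPKM after 5-AZA. Each point is a gene, the black bar is the median of its list, and the dashed line is the median of all genes tested (1.11). Muscle and adipocyte markers have medians of 1.5 and 1.45, and the antiviral effectors 1.02, with Xaf1 highest at 1.91.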

How the data were processed

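RNA depleted of ribosomal RNA from 2 untreated and 2 5-AZA samples was sequenced with a stranded protocol. Per the labels, the authors' processing lists Trimmomatic, HISAT2, Bowtie2 2.2.9 and eXpress 1.5.1, and the build mm9. The values deposited by the authors are FPKM of single transcripts for mRNAs and lncRNAs, whereas the circRNA values deposited are RPM, and only their host gene names and positions were read. Positions were read as GRCm38, since 69.9% of 2356 circRNA host transcript positions had a start or end on that of a GRCm38.p6 gene. Of 131850 lncRNAs, 1984 had both their start and end on those of such a gene. The positions were not compared with the listed build. FPKM sums per sample ran from 328410 to 361664. The deposited values hold no fragment counts. Depth is therefore unknown, and the number of samples limits the precision.

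Transcripts were summed per gene, and limma 3.58.1 (eBayes with trend, R 4.3.3) was fitted to log2(FPKM + 0.1) where a gene or transcript averaged 0.1 FPKM or more over all 4 samples. The DESeq package named by the study needs counts and was not used. With this pseudocount, changes of low genes come out too small. The fit was also run on simulated data in which as many genes rose as fell, unlike here. That run therefore does not measure the errors among the calls in these data. No permutation of 2 samples against 2 gives a two-sided p-value below 0.333. Over 13199 genes, r on log2 values was 0.991 between the untreated samples, 0.985 between the 5-AZA samples and 0.903 to 0.913 across groups.

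The genes and lists were chosen with earlier results of these data known. All 10 genes were named, with Ifnb1, Ifnar1, Ifnar2, Stat2, Irf9, Irf7, Uba7, Ube2l6, Herc6, Trim25, Nmi, Xiap and Cmpk2 of the lists, and the other list genes were counted, except where the text says otherwise. Fcer1g, Cd68, Cd79a, Ptprc, Adgre1, Cd3e, Tyrobp, Nt5e, Vim, Fn1, Col1a1, Col1a2, Col3a1, Pdgfra, Pdgfrb, Thy1, Eng, Cidec, Ifne, Ifng, Ifi44l and Ifi27l2a were named after their values were seen. Some genes of the lists are counted but not reported here by name. Promoters were taken from RefSeq. Other pseudocounts, limits, scalings, eBayes without trend, curated transcripts alone and the omission of each sample were tried as alternatives.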

Additional observations from a re-analysis of the deposited data

Results flagged for a closer look

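A signal at the Mx1 locus appeared outside the mRNA values. NONMMUT027903.2 is a lncRNA of 3478 bases in a single exon on the minus strand at chr16:97459428-97462905. With the positions listed by the authors read as GRCm38, it lies within the span of Mx1 in the RefSeq table. It was listed at 0.0903 and 0.0559 FPKM in the untreated samples and at 0.579 and 0.36 FPKM in the 5-AZA samples, with means of 0.0731 and 0.469 FPKM, so both 5-AZA values lay above both untreated values. The difference was not tested, and the lncRNA values were scaled in a table of their own. The overlap was found by position alone, and the strands of the lncRNA and of Mx1 were not compared. Whether the fragments come from the Mx1 transcript was not tested, and that transcript was not analysed here.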

How the results depend on the processing

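Each of the 7 antiviral effector genes tested was higher under all 13 alternatives, and 89 of 91 values kept their call. The other 2 were Xaf1 without either 5-AZA sample. The count of antiviral effector genes called was therefore 6 to 7, and 8 with FPKM rescaled to the same sum in every sample, where Rsad2 was called. Over all genes, 1724 were higher and 174 lower. A pseudocount of 1 FPKM gave 875 and 86, a limit of 1 FPKM gave 845 higher, no limit gave 83 lower, and quantile normalization gave 1041 and 886. With each sample left out, 733 to 1617 were higher and 52 to 184 lower. A lone sample is then assumed to vary like the other group. Of the ISG15 enzymes, 1 was called with a pseudocount of 1 FPKM and 1 to 3 without each sample, and of the partners 0 to 1. The transcripts of the 8 genes called higher fell from 8 to 0 without a limit on low values, where 0 of 66285 passed, and to 0 to 4 without each sample. Ifnar1 ran from -0.116 to 0.109 without each sample, turning to 0.009 without untreated replicate 2 and to 0.109 without 5-AZA replicate 101. The cause was not tested in these cases. No paired analysis was possible because the groups share no replicate numbers. The call of Rsad2 depends on the limit and the scaling, and a gene that is not called has not been shown to be unchanged.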

Other observations

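Besides the lncRNA at Mx1, 4 other lncRNAs overlapped one of the 10 genes. NONMMUT150658.1, of 316 bases in 2 exons on the minus strand of chromosome 6, overlaps Usp18 and extends beyond it. It was listed at 1.88 and 1.80 FPKM in the untreated samples and at 0 in both 5-AZA samples, the opposite direction to Usp18 itself, and was not tested. The other 3 were at 0 in both untreated samples and above 0 in at most 5-AZA replicate 101, as with NONMMUT012073.2 at Ifi35 (1.29 FPKM).

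Among 10713 genes outside the lists with a mean of at least 1 FPKM, the 5 whose profile over the 4 samples was closest to the median profile of the 7 antiviral effector genes tested were Tex13, Piwil2, Popdc2, Ptgr2 and Slco2a1. Their distances were 0.091 to 0.228 on the log2(FPKM + 0.1) scale and their log2 fold changes 3.99 to 4.20. Likeness over 4 samples in 2 groups rests mostly on the size of the change.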
